A study of Homo sapiens with 12 samples.

Results

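The 40 genes described here build ribosomes in the nucleolus, and they are counted among the classic targets of the transcription factors MYC and MYCN. They were taken from a table of 55771 gene rows by gene symbol, and all 40 symbols were found. The cells were KELLY, 1 established human neuroblastoma line with many copies of MYCN. Every library came from cells plated for 24 h in 10% serum, moved to 4% serum, and lysed after 48 h with 50 nM of a morpholino oligonucleotide, an uncharged antisense molecule, carried by a DNA leash and a lipid reagent. The oligonucleotide was BPS1 in 4 libraries, BPS2 in 4 and a control in 4. Total RNA depleted of ribosomal RNA was sequenced. Per the series text, the aim was to read the transcriptome once NEAT1_2, the long transcript of NEAT1, and the paraspeckles built on it had increased.

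Ribosome assembly starts when RNA polymerase I copies the ribosomal DNA into a long precursor. Small nucleolar RNA-protein particles then modify it: those with box C/D RNAs methylate riboses and those with box H/ACA RNAs convert uridines to pseudouridines. A large complex on the 5′ end of the precursor, the small subunit processome, folds and cuts the part that becomes the 40S subunit, and a separate set of factors assembles the 60S subunit. MYC proteins bind the sequence CACGTG, the E-box, often near the start of genes of ribosome assembly, and neuroblastomas with amplified MYCN are known for prominent nucleoli.

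The E-box was common in the promoters of these genes, and the examples below show where it sits. The genes were chosen as MYC and MYCN targets, so a high share of E-boxes may come with that choice and is only described. RefSeq promoter windows on GRCh38.p14, from 250 bases before to 50 bases after the start, existed for 35 of the 40 genes. CACGTG, which reads the same on both strands, stood in a window of 17 of the 35 genes (48.57%), against 11.96% of 12295 tested genes. Counted by window, it stood in 17 of their 43 windows (39.53%), against 7.256% of all 35116 windows. A match is a description of letters and not a bound site. Windows are printed 5′ to 3′ on the strand of the gene, from 100 bases before to 30 after the start, with the E-box in capitals. The first pair belongs to the genes that passed a test over all 12 libraries, UTP20 (chr12:101280005-101280134, plus strand) and UTP4 (chr16:69132549-69132678, plus strand).
UTP20: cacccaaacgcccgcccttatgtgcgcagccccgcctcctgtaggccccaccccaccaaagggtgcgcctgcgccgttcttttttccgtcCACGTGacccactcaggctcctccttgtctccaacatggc
UTP4: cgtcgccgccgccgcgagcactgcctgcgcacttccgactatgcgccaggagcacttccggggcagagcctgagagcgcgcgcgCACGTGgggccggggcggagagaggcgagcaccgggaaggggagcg

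Among the other small subunit factors, WDR43 (chr2:28894567-28894696, plus strand) had its E-box just after the start, and UTP18 (chr17:51260446-51260575, plus strand) had 2. FBL (chr19:39846350-39846479, minus strand) and PES1 (chr22:30591881-30592010, minus strand) show the same element at a methyltransferase gene and at a large subunit gene.
WDR43: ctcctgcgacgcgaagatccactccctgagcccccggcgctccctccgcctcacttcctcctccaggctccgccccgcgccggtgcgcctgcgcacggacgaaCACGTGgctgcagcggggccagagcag
UTP18: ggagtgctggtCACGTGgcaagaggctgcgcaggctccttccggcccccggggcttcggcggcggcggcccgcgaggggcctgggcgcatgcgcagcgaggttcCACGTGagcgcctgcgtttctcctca
FBL: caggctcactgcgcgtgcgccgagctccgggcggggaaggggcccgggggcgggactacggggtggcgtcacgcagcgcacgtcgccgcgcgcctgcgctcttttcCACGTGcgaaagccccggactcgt
PES1: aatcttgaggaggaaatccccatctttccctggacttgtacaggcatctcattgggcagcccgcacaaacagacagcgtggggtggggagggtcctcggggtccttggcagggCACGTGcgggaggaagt
The windows of UTP15 (chr5:73565643-73565772, plus strand) and WDR75 (chr2:189441374-189441503, plus strand), whose products work in the same subcomplex as those of UTP4 and WDR43, held no CACGTG, which says only that these letters are absent from them.
UTP15: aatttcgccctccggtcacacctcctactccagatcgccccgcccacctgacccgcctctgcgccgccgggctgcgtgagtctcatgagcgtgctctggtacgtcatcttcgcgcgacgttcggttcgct
WDR75: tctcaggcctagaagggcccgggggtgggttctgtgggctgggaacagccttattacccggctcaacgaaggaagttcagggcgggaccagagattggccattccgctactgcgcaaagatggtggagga

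In this list, chosen as MYC and MYCN targets, most E-box matches lay near the start. Of the 19 matches in their windows, 16 (84.21%) lay between 30 bases before and 40 bases after the start, against 674 of 2821 matches (23.89%) over all windows. The limits of that interval were set by hand, without a stated rule, so the share is only described. It was not computed for the other lists, so whether this position is particular to these genes was not tested. The E-box was found in 9 of 13 small subunit genes with a window, 3 of 7 large subunit genes and 0 of 5 RNA polymerase I genes. Further ribosome assembly genes held it in 14 of 39 small subunit and 14 of 53 large subunit genes, and cytosolic ribosomal protein genes in 4 of 63 (6.349%). Other MYC targets, outside ribosome assembly, held it in 20 of 48 (41.67%), near the 17 of 35 (48.57%) here, so it is not particular to these genes. The log2 fold change with BPS1 had a median of 0.13 in the 17 genes with an E-box and 0.15 in the 18 without, and with BPS2 0.08 in those with an E-box and 0.02 in those without.

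The values are normalized counts, and dividing each library's total by the value of 1 read put the depth at 29.1 to 31.8 M reads per library. Of the 12, BPS1 replicate 4 and control replicate 1 differed most from the other libraries: their log2 deviations from the median of each gene had an SD of 0.594 in BPS1 replicate 4 and 0.471 in control replicate 1, against 0.377 to 0.425 elsewhere. The deviation rose with the GC content of the transcript in both (Spearman's rho across genes 0.375 and 0.261, against −0.232 to 0.217 in the others). Counts of calls among the 40 genes and in several related lists are therefore given with and without these 2 libraries. The 2 were picked from these same values, and leaving them out narrows the spread within groups. The p-values of fits without them therefore tend to be too small, and those calls are a description only. NEAT1 as a whole fell with both, to 2024 ± 420 in BPS1 and 4262 ± 412 in BPS2, against 6879 ± 264 in control (SD, n = 4; limma adjusted p = 6.00e-06 and 0.0239). Its 1 row does not separate the transcripts, so it is no check of NEAT1_2. Markers of adrenergic neuroblastoma cells were all 16 above the filter, with sums of 164799 to 212932 in BPS1, 190445 to 203781 in BPS2 and 217680 to 261972 in control. With BPS1, 3 of the 16 rose and 7 fell, against 4.29% and 4.32% of all genes. With BPS2, 1 rose and 3 fell, against 0.821% and 0.386%. The part of these markers in the results of the 40 genes was not tested. Sums of immune markers (41.4 to 90.3), Schwann cell markers (138 to 205) and endothelial markers (147 to 299) were low in all 12 libraries. Sums of 15 mesenchymal markers were 7007 to 8860 in BPS1, 6689 to 7117 in BPS2 and 6005 to 7467 in control. Of 14 tested, 2 rose with BPS1 and 1 with BPS2, against 4.29% and 0.821% of all genes, and 0 fell. Their median log2 fold changes were 0.27 and 0.38, and their part in the results of the 40 genes was not tested either. Of these markers, 0 were at 0 in every library. In such bulk RNA, fewer cells of a type and less RNA per cell cannot be told apart. Whether replicates are separate cultures is not stated, so a p-value here sets a difference against a spread that may be only technical.

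All 40 genes were expressed well above the filter, set at 10 or more in 4 or more libraries, and 20454 genes of the table passed it. Per kilobase of the principal transcript, the highest levels in control cells were those of NPM1 (37614), the nucleolar chaperone nucleophosmin, NCL (11698), nucleolin, FBL (8435), the box C/D methyltransferase, and NOP56 (6677), a core protein of the same particle. The lowest were POLR1A (271), the largest subunit of RNA polymerase I, and LYAR (333), a nucleolar growth regulator. NPM1 and NCL together made up 36.3% to 39.8% of the summed counts of the 40 genes. That sum was 0.947% to 1.00% of a library in BPS1, 0.916% to 0.934% in BPS2 and 0.906% to 0.941% in control.

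MYCN itself was among the most abundant genes. Its normalized counts were 74422, 71302, 71633 and 87331 in the BPS1 libraries, 82104, 84900, 86169 and 87722 in the BPS2 libraries, and 92957, 88246, 84161 and 81151 in the control libraries. BPS1 replicates 1, 2 and 3 lay below every other library, and BPS1 replicate 4 lay among the controls. The log2 fold change was −0.19 ± 0.07 (SE of the fit) with BPS1 (limma adjusted p = 0.115) and −0.02 ± 0.07 with BPS2 (adjusted p = 0.942). Without BPS1 replicate 4 and control replicate 1 MYCN fell with BPS1, by 0.22 on the log2 scale (limma adjusted p = 0.00190). That fit left out libraries picked from these values, so its p-value tends to be too small. MYC, the founding member of the family, had at most 14.2 normalized counts in any library and was not tested.

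Of the 40 genes, 2 passed a test in the fit of all 12 libraries. With BPS1, 1 of 40 was higher (UTP4) and 0 were lower at a limma adjusted p under 0.05, against 4.29% higher and 4.32% lower of all genes tested (8.60% in all). At an unadjusted p under 0.05, 9 were higher and 2 lower (11.3% and 11.2% of all genes). With BPS2, 0 were higher and 1 lower (UTP20), against 0.821% and 0.386% of all genes (1.21% in all), and at an unadjusted p under 0.05, 0 were higher and 2 lower (6.08% and 5.34%). BPS2 against BPS1 gave 0 higher and 1 lower, again UTP20, against 2.30% and 1.63% (3.93% in all), and 0 higher and 5 lower at an unadjusted p under 0.05 (9.13% and 8.01%). Each adjusted count is 1 gene or 0, so nothing about the 40 genes as a group is read from it.

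The directions were less even than the calls. With BPS1 the log2 fold change was above 0 for 32 of 40 genes, with a median of 0.14 and quartiles of 0.02 and 0.20, against 50.0% and a median of −0.00 over all genes tested. With BPS2 it was above 0 for 30 of 40, with a median of 0.07, against 50.6% and 0.00. BPS2 lay above BPS1 for 10 of 40, with a median of −0.08, against 49.6% and −0.00. Both comparisons with control share the same control libraries. Without BPS1 replicate 4 and control replicate 1, the medians were 0.11 with BPS1, 0.11 with BPS2 and 0.01 for BPS2 against BPS1, and BPS2 lay above BPS1 for 21 of 40 genes. Without BPS1 replicate 4 alone the median with BPS1 was 0.05 and that of BPS2 against BPS1 was 0.01, so its sign turned. Without control replicate 4 alone the median with BPS2 was 0.03.

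The 95% intervals show how small a change the design allows for. They lay within 0.5 of 0 on the log2 scale, a 1.41-fold change, for 35 of 40 genes with BPS1, 37 of 40 with BPS2 and 36 of 40 for BPS2 against BPS1. The genes outside were LYAR, POLR1A, WDR75, NOP16 and PPAN with BPS1, POLR1A, WDR75 and UTP20 with BPS2, and these last 3 with PPAN for BPS2 against BPS1. The half-width of the interval was 0.10 to 0.43, with a median of 0.24.

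**Figure D1:**
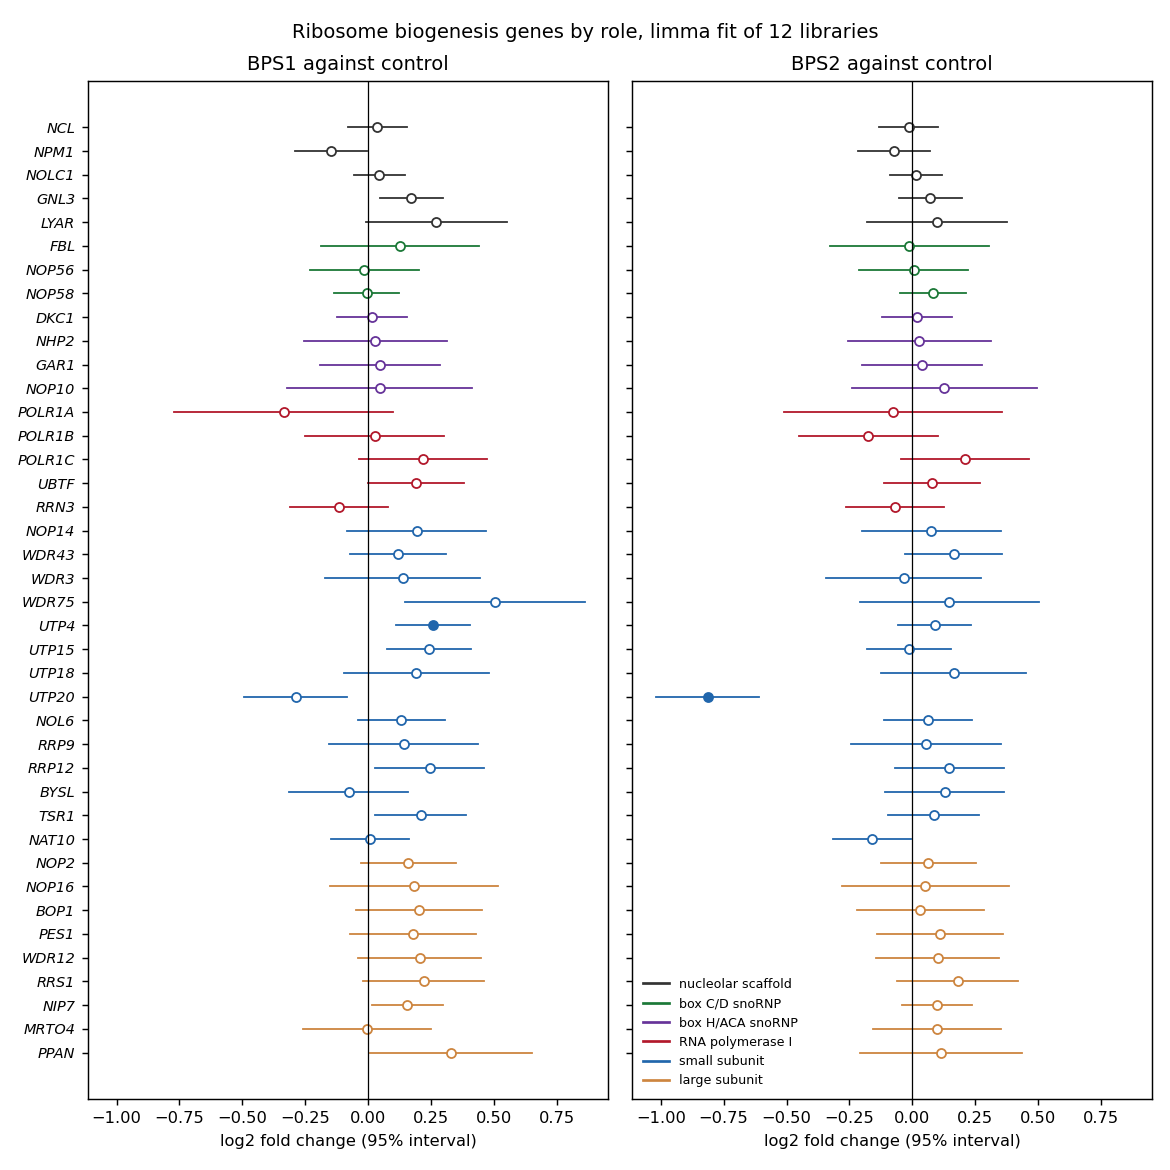
Log2 fold change of each of the 40 genes, ordered and coloured by role, with BPS1 against control on the left and BPS2 against control on the right. Points are estimates and lines 95% intervals of the limma fit on 4 libraries per group, and filled points passed the test: UTP4 at 0.26 with BPS1 and UTP20 at −0.81 with BPS2. With BPS2 the other 39 genes ranged from −0.17 to 0.21, and UTP20 lay well outside. With BPS1 UTP4 lay inside the range of the 40 genes, −0.34 to 0.50.

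UTP20 gave the largest difference among the 40 genes. It encodes a very large protein of helical repeats that joins the small subunit processome and is needed for the early cuts that release the 18S rRNA. The gene (ENSG00000120800) occupies 101280109 to 101386616 of chromosome 12 (GRCh38, plus strand). Its normalized counts were 3487, 3263, 3339 and 3104 in the BPS2 libraries, 5002, 5145, 4987 and 3949 in the BPS1 libraries, and 4990, 5882, 6229 and 6165 in the control libraries. The BPS2 libraries lay below all others, without overlap, while BPS1 and control overlapped.

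With BPS2 UTP20 fell to 3298 ± 159, against 5817 ± 571 in control (SD, n = 4), a log2 fold change of −0.81 ± 0.10 with a 95% interval of −1.02 to −0.61 and a ratio of 0.569 (limma adjusted p = 0.00108). It was also lower with BPS2 than with BPS1, whose mean was 4771 ± 553, by a log2 fold change of −0.53 ± 0.10 (ratio 0.695, adjusted p = 0.00759). The exact permutation p was 0.0286 in both, the smallest that 4 libraries against 4 can give. Both calls held under each alternative tried. With BPS1 against control the log2 fold change was −0.29 ± 0.10 (adjusted p = 0.0839). Without BPS1 replicate 4 and control replicate 1 UTP20 fell with BPS1 as well, to 5045 ± 86.9 against 6092 ± 185 in control (SD, n = 3; limma adjusted p = 0.00418), and BPS2 stood at −0.89 against control (limma adjusted p = 9.98e-06).

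The nearest tested gene after UTP20 on the chromosome was ARL1, a small GTPase of the Golgi. ARL1 was looked up after the values of UTP20 were seen. It averaged 1873 ± 74.6 with BPS2, 1316 ± 42.8 with BPS1 and 1684 ± 101 in control. Its log2 fold change was 0.15 with BPS2 (limma adjusted p = 0.399), and it fell with BPS1 by 0.35 on the log2 scale (limma adjusted p = 0.00571).

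**Figure D2:**
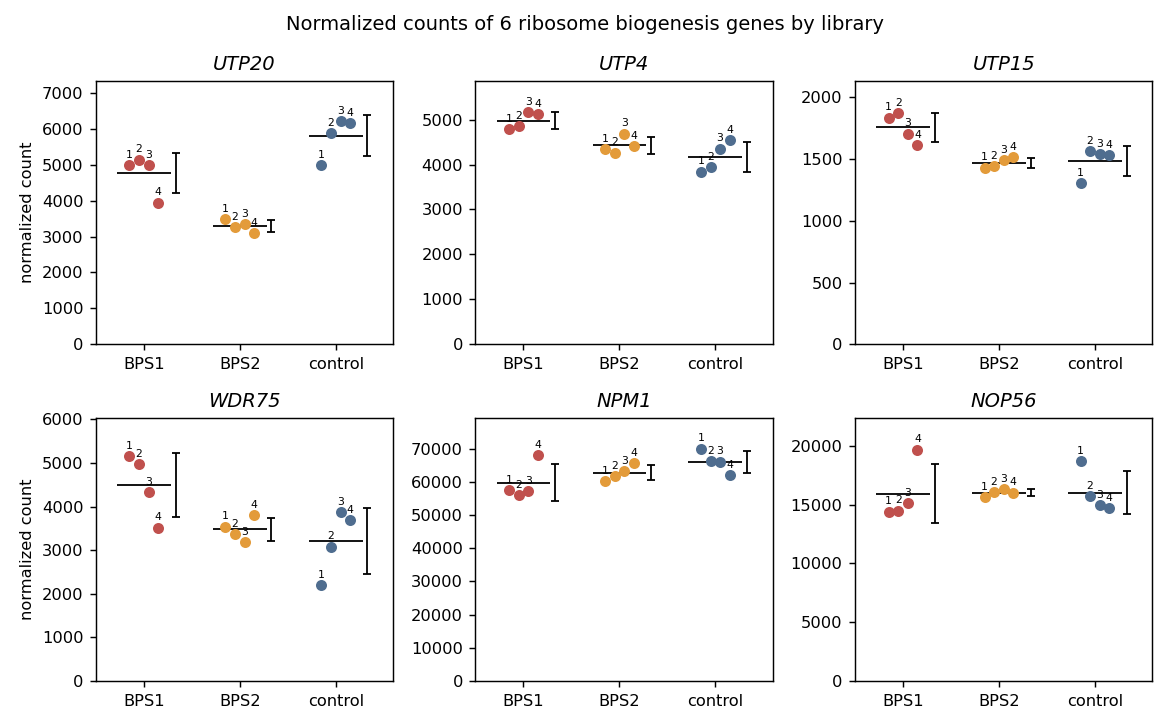
Normalized counts of 6 of the genes in each library, with points numbered by replicate, a line at the mean of 4 libraries and a bar of 1 SD either side. UTP20 with BPS2 lies at 3104 to 3487, below every other library. UTP4 and UTP15 are highest with BPS1, and in NOP56 BPS1 replicate 4 and control replicate 1 lie above the rest.

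UTP4 was the gene that rose with BPS1. Its product, also called cirhin, belongs with UTP15, WDR43 and WDR75 to UTP-A, the subcomplex of the small subunit processome that binds the precursor first. The gene (ENSG00000262788 in the table) occupies 69131291 to 69231130 of chromosome 16 (GRCh38, plus strand). Its normalized counts were 4793, 4851, 5160 and 5117 in the BPS1 libraries, 4351, 4268, 4687 and 4406 in the BPS2 libraries, and 3842, 3935, 4356 and 4540 in the control libraries. All BPS1 libraries lay above all others, and BPS2 and control overlapped. The log2 fold change with BPS1 was 0.26 ± 0.07, a ratio of 1.20 (limma adjusted p = 0.0317). Leaving out BPS1 replicate 2 or 3 or control replicate 1 or 2 ended that call, with adjusted p of 0.0579, 0.0895, 0.0679 and 0.0991 in that order, and so did no filter (0.0823), quantile scaling (0.0562) and a fit of the 2 groups alone (0.103). With BPS2 it was 0.09 ± 0.07 (adjusted p = 0.684).

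UTP15, WDR75 and WDR43 did not pass, and their groups did not follow a shared order. UTP15 had 1836, 1872, 1706 and 1614 normalized counts in the BPS1 libraries, 1431, 1442, 1493 and 1514 in the BPS2 libraries, and 1305, 1567, 1538 and 1533 in the control libraries. BPS1 was again above all others without overlap, at a log2 fold change of 0.24 ± 0.08 against control (limma adjusted p = 0.0735), and BPS2 against BPS1 stood at −0.25 ± 0.08 (adjusted p = 0.0947).

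WDR75 was the most variable of them, with 5154, 4980, 4330 and 3515 normalized counts in the BPS1 libraries, 3538, 3375, 3182 and 3811 in the BPS2 libraries, and 2189, 3083, 3866 and 3691 in the control libraries. BPS1 replicate 4 fell inside the range of the controls, and control replicate 1 lay below the other controls. The log2 fold change with BPS1 was 0.50 ± 0.17 (limma adjusted p = 0.0807). WDR43 had 5874, 6671, 6316 and 4930 normalized counts in the BPS1 libraries, 6380, 6131, 5905 and 5989 in the BPS2 libraries, and 4880, 5687, 5554 and 5684 in the control libraries. Here it was BPS2 that did not overlap with control, at 0.16 ± 0.09 (adjusted p = 0.531). HEATR1 and NOL11 also belong to UTP-A and are not among the 40. HEATR1 had a log2 fold change of −0.03 ± 0.12 with BPS1 and −0.05 ± 0.12 with BPS2 (limma adjusted p = 0.922 and 0.919). NOL11 was at 0.17 ± 0.09 with BPS1 and 0.01 ± 0.09 with BPS2 (adjusted p = 0.259 and 0.990).

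Without BPS1 replicate 4 and control replicate 1, UTP4, UTP15 and WDR75 all rose with BPS1, at log2 fold changes of 0.21, 0.22 and 0.45 (limma adjusted p = 0.0400, 0.0204 and 0.0104). UTP15 and WDR75 were then also lower with BPS2 than with BPS1, at −0.29 and −0.47 (adjusted p = 0.00291 and 0.00476). The libraries left out were picked from these values, so the p-values of this fit tend to be too small.

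The small subunit genes as a group had 12 of 14 above 0 with BPS1 and 10 of 14 with BPS2, with median log2 fold changes of 0.17 and 0.08. Outside UTP20 and UTP-A, the other 9 gave no call over all 12 libraries. WDR3, the most abundant of them, belongs with UTP18 to UTP-B, the next subcomplex to join. It averaged 8728 ± 1547 with BPS1, 7657 ± 520 with BPS2 and 7915 ± 1300 in control, and BPS1 replicate 4 (6421) and control replicate 1 (5973) held its 2 lowest values. NAT10, the enzyme that acetylates cytidines of the 18S rRNA, averaged 3181 ± 135 with BPS2, 3575 ± 219 with BPS1 and 3561 ± 261 in control, a log2 fold change of −0.16 ± 0.07 with BPS2 (limma adjusted p = 0.419). TSR1, a factor of late 40S maturation, averaged 6242 ± 562 with BPS1, 5717 ± 372 with BPS2 and 5393 ± 446 in control, a log2 fold change of 0.21 ± 0.08 with BPS1 (adjusted p = 0.150). BYSL, which accompanies the 40S precursor to export, averaged 1611 ± 269 with BPS1, 1842 ± 82.5 with BPS2 and 1691 ± 183 in control. RRP12, another late 40S factor, did not overlap between BPS1 and control, at 0.25 ± 0.10 (adjusted p = 0.165). In all, 4 genes did not overlap with BPS1 above control (GNL3, UTP4, UTP15 and RRP12) and 0 below, against 7.50% and 6.81% of all genes. With BPS2, 2 lay above (GNL3 and WDR43) and 1 below (UTP20), against 5.41% and 4.23%. For BPS2 against BPS1, 0 lay above and 4 below (GNL3, UTP4, UTP15 and UTP20), against 6.08% and 5.80%.

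The 9 large subunit genes mostly shared a direction but gave no call. Of these, 8 were above 0 with BPS1 and 9 with BPS2, with median log2 fold changes of 0.18 and 0.10. PES1, which with BOP1 and WDR12 forms the PeBoW complex of 60S assembly, had 7514, 7807, 8106 and 10941 normalized counts in the BPS1 libraries, 7681, 8080, 8555 and 8096 in the BPS2 libraries, and 9025, 7353, 6890 and 6922 in the control libraries. The highest BPS1 and the highest control value came from the 2 libraries that stand apart, and the groups overlapped. PES1 had a log2 fold change of 0.18 ± 0.12 with BPS1 (limma adjusted p = 0.404) and 0.11 ± 0.12 with BPS2. BOP1 and WDR12 were at 0.20 and 0.21 with BPS1 and 0.03 and 0.10 with BPS2. RRS1, which brings the 5S particle to the 60S precursor, was at 0.22 ± 0.11 with BPS1 and 0.18 ± 0.11 with BPS2 (adjusted p = 0.265 and 0.595), and NIP7, a further 60S factor, at 0.16 ± 0.07 and 0.10 ± 0.07 (adjusted p = 0.172 and 0.627). PPAN was at 0.33 ± 0.15 with BPS1 (limma adjusted p = 0.208), with 3699 in BPS1 replicate 4 against 2204 to 2284 in the other BPS1 libraries. It overlaps the readthrough transcript PPAN-P2RY11, and whether they share reads was not tested. The row of PPAN-P2RY11, at 88.1 ± 22.3 with BPS1, 55.8 ± 11.4 with BPS2 and 45.5 ± 4.99 in control, rose with BPS1 (limma adjusted p = 0.0123).

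The 5 RNA polymerase I genes did not share a direction. UBTF, the factor that holds ribosomal DNA open for transcription, averaged 8914 ± 1046 with BPS1, 8209 ± 245 with BPS2 and 7800 ± 788 in control, at 0.19 ± 0.09 with BPS1 (limma adjusted p = 0.218). POLR1C, a subunit shared with RNA polymerase III, was at 0.22 ± 0.12 with BPS1 and 0.21 ± 0.12 with BPS2 (adjusted p = 0.307 and 0.549). POLR1A had the largest standard error of the 40 genes in the fit (0.20), with 2221 to 3299 in the BPS1 libraries, 2339 to 4307 in the BPS2 libraries and 2534 to 4207 in the control libraries. RRN3, which recruits the polymerase, was at −0.12 with BPS1 and −0.07 with BPS2, and its value may share reads with its pseudogenes.

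The modification particles and the nucleolar scaffold gave no call, with median log2 fold changes of −0.01 to 0.05 with BPS1 and 0.01 to 0.03 with BPS2. In the box C/D group, NOP56 averaged 15926 ± 2526 with BPS1, 16014 ± 292 with BPS2 and 16025 ± 1834 in control. BPS1 replicate 4 (19687) and control replicate 1 (18693) held its highest values. In the box H/ACA group, DKC1, the pseudouridine synthase dyskerin, averaged 6380 ± 214 with BPS1, 6395 ± 276 with BPS2 and 6316 ± 436 in control. Its 3 partners NHP2, GAR1 and NOP10 lay at 0.03 to 0.05 with BPS1 and 0.03 to 0.13 with BPS2.

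Of the scaffold genes, NPM1 had 57627, 56100, 57313 and 68139 normalized counts in the BPS1 libraries, 60272, 61830, 63401 and 65622 in the BPS2 libraries, and 70085, 66227, 66125 and 62068 in the control libraries. BPS1 replicates 1, 2 and 3 lay below all other libraries and BPS1 replicate 4 above all but control replicate 1. The log2 fold change with BPS1 was −0.15 ± 0.07 (limma adjusted p = 0.205), and its value may share reads with pseudogenes. GNL3, nucleostemin, a GTPase of the nucleolus, did not overlap between groups in any comparison. It averaged 10090 ± 762 with BPS1, 9398 ± 83.8 with BPS2 and 8942 ± 145 in control, and its log2 fold change was 0.17 ± 0.06 with BPS1 and 0.07 ± 0.06 with BPS2 (adjusted p = 0.0915 and 0.715).

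**Figure D3:**
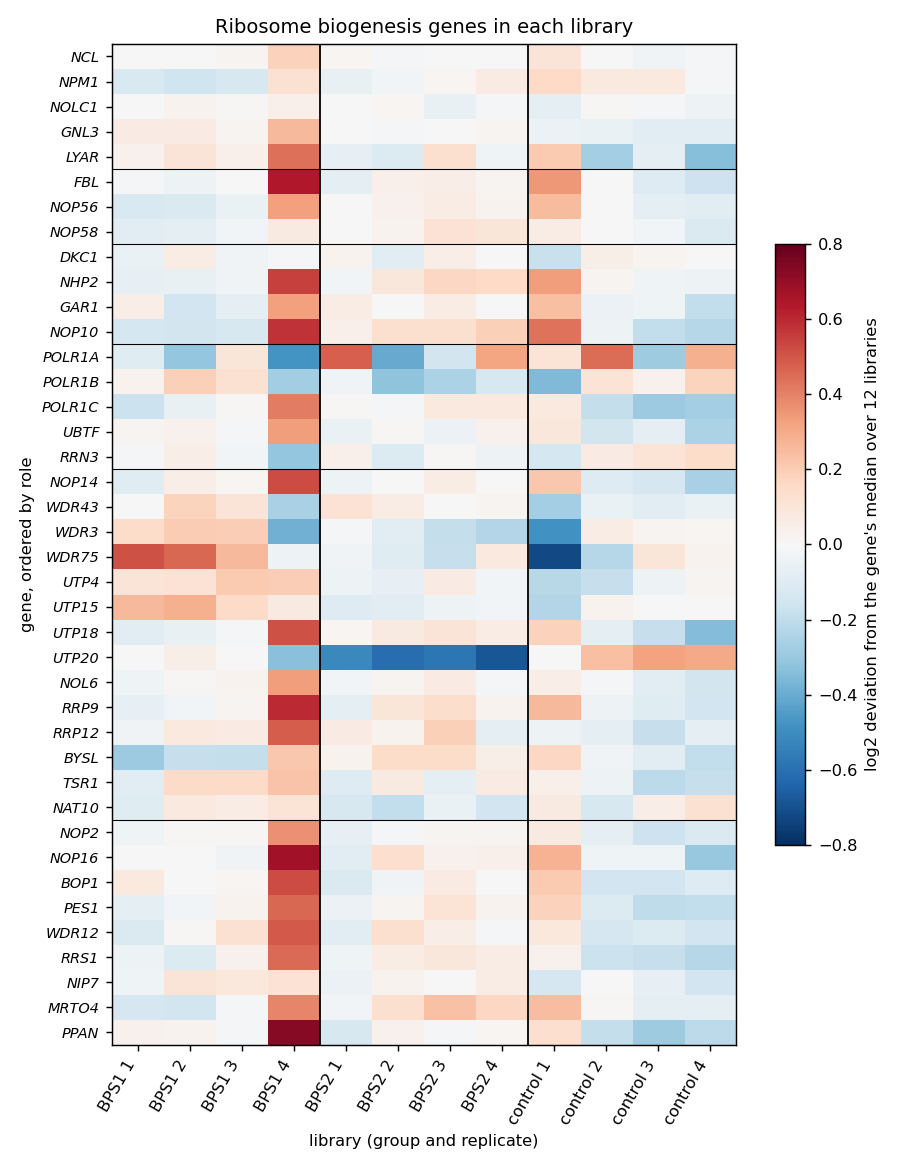
Log2 deviation of each of the 40 genes (rows, ordered by role) from its median over the 12 libraries (columns, by group and replicate), red above and blue below. BPS1 replicate 4 holds the highest value of 27 genes, and the row of UTP20 is blue in all 4 BPS2 libraries.

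BPS1 replicate 4 stood highest in the 40 genes. Their median log2 deviation from the 12-library median was −0.03, 0.01, 0.02 and 0.33 in BPS1 replicates 1 to 4, −0.03, 0.01, 0.05 and 0.02 in the BPS2 libraries, and 0.08, −0.04, −0.07 and −0.11 in the control libraries. Of the 40 genes, 27 were highest in BPS1 replicate 4, and 14 were lowest in control replicate 4. By role, BPS1 replicate 4 stood at 0.46 for the large subunit, 0.44 for box H/ACA, 0.33 for box C/D, 0.21 for the small subunit, 0.18 for the scaffold and −0.28 for RNA polymerase I.

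In some libraries the deviation of the 40 genes went with the GC content of their transcripts, which had a median of 49.7% against 48.5% in all genes tested. Spearman's rho across the 40 genes, which share a library and are not replicates, was 0.63 in BPS1 replicate 4 and 0.54 in control replicate 1, against −0.40 in BPS1 replicate 2 and −0.56 in control replicate 3. It was 0.43 in BPS2 replicate 3 and 0.38 in BPS2 replicate 2, and lay between −0.33 and 0.17 in the other 6 libraries. In BPS1 replicate 4, WDR3 and WDR43, of low GC content, lay below their median and PPAN and RRP9, of high GC content, above it, but WDR12, also of low GC content, lay 0.49 above it, and UTP15, with the lowest GC content of the 40, 0.07 above it. The part of GC content in the shift of single genes was not tested. With a smooth GC trend removed from each library, the median was 0.13 with BPS1 and 0.05 with BPS2, UTP4, UTP15 and WDR75 rose with BPS1 (limma adjusted p = 0.0190, 0.0123 and 0.0174), and UTP20 fell with BPS1 and with BPS2.

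**Figure D4:**
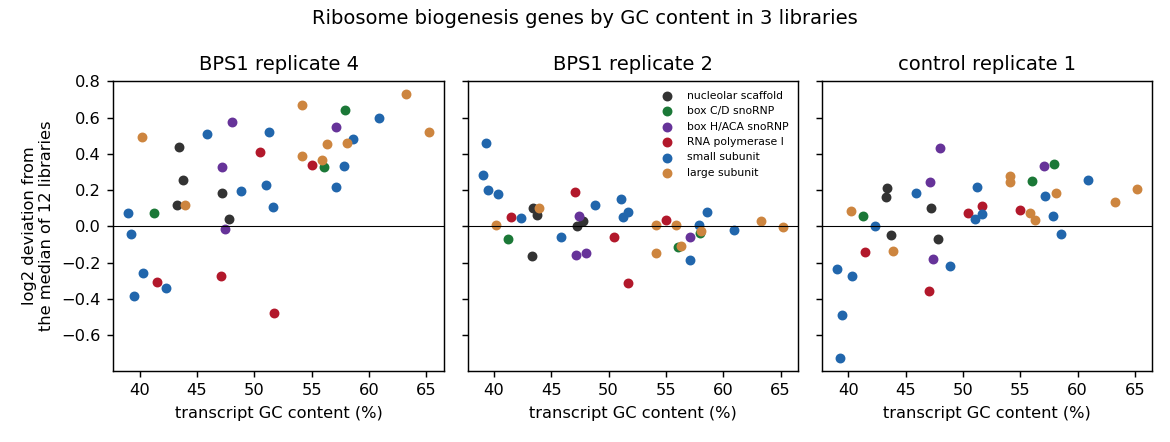
Log2 deviation of each of the 40 genes from its 12-library median against the GC content of its principal transcript in %, in BPS1 replicate 4, BPS1 replicate 2 and control replicate 1, coloured by role. The deviation rises with GC content in BPS1 replicate 4 (rho 0.63) and control replicate 1 (0.54) and falls in BPS1 replicate 2 (−0.40).

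Leaving out BPS1 replicate 4 and control replicate 1 together made more calls among the 40 genes and among all genes. Because the 2 libraries were picked from these values, the p-values of this fit tend to be too small. With BPS1, 6 were then higher (GNL3, PPAN, UBTF, UTP15, UTP4 and WDR75) and 2 lower (NPM1 and UTP20), against 6.42% and 7.33% of 20161 genes tested. With BPS2, 6 were higher (NOP10, PES1, POLR1C, PPAN, RRS1 and UTP18) and 2 lower (POLR1B and UTP20), against 5.78% and 3.76%. For BPS2 against BPS1, 5 were higher (BYSL, MRTO4, NOP10, NOP56 and NPM1) and 5 lower (POLR1B, UTP15, UTP20, WDR3 and WDR75), against 10.5% and 6.88%.

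In these 10 libraries WDR75 had a ratio of 1.36 with BPS1 against control and of 0.722 for BPS2 against BPS1. NPM1 averaged 57013 ± 806 with BPS1 and 64807 ± 2372 in control (SD, n = 3), a ratio of 0.880 (limma adjusted p = 0.00627). NOP10, a small box H/ACA protein, averaged 2342 ± 102 with BPS2 (n = 4) and 1938 ± 138 in control (n = 3), a ratio of 1.21 (adjusted p = 0.0148). POLR1C rose 1.22-fold with BPS2 (adjusted p = 0.0119) while POLR1B, the second largest subunit, fell to a ratio of 0.818 (adjusted p = 0.0330). BYSL was 1.25-fold higher and WDR3 lower, at a ratio of 0.805, with BPS2 than with BPS1 (adjusted p = 0.00464 and 0.00176).

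Of 124 further ribosome assembly genes tested, 9 were higher and 1 lower with BPS1, against 4.29% and 4.32% of all genes, with a median log2 fold change of 0.11. With BPS2, 0 were higher and 0 lower in the limma fit, against 0.821% and 0.386% of all genes. At an unadjusted p under 0.05 they were 3 and 0, against 6.08% and 5.34% of all genes, and the median was 0.06. The small subunit genes that rose with BPS1 were DIMT1 (0.39), the 18S dimethylase, UTP11 (0.38), RRP7A (0.30) and DCAF13 (0.26), with limma adjusted p of 0.0118, 0.0301, 0.0423 and 0.0256. WDR36, a partner of UTP18 and WDR3 in UTP-B, fell by 0.79 (adjusted p = 0.0310). The large subunit genes that rose were RPF2 (0.49), the partner of RRS1, DDX51 (0.34), RSL1D1 (0.24) and RBM28 (0.23), and of 17 other RNA polymerase I genes CD3EAP rose (0.28). For BPS2 against BPS1, UTP6, another UTP-B subunit, was higher by 0.54 (adjusted p = 0.0185). Without BPS1 replicate 4 and control replicate 1, 19 of the 124 were higher and 5 lower with BPS1, against 6.42% and 7.33% of all genes. With BPS2, 14 were then higher and 3 lower, against 5.78% and 3.76%.

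Of 57 MYC targets outside ribosome assembly, 4 rose with BPS1 and 2 fell, with a median of 0.05. Over all genes, 4.29% rose and 4.32% fell with BPS1, so these few calls are not read as a result about MYC targets. Those that rose included EIF2S1 (0.45), a translation initiation factor, and LDHA (0.30), lactate dehydrogenase, and those that fell were BZW2 (−0.48) and CDK4 (−0.48), a cell cycle kinase. With BPS2, 0 rose and 0 fell (3 and 1 at an unadjusted p under 0.05), with a median of 0.05. Over all genes, 0.821% rose and 0.386% fell with BPS2 (6.08% and 5.34% at an unadjusted p under 0.05). Without BPS1 replicate 4 and control replicate 1, 9 MYC targets rose and 8 fell with BPS1, against 6.42% and 7.33% of all genes. With BPS2, 15 then rose and 2 fell, against 5.78% and 3.76%. Of 11 tested genes of the MYC, MAX and MXD network, MNT, a MAX partner that opposes MYC, rose with BPS1 (0.35, limma adjusted p = 0.0465).

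Of 78 cytosolic ribosomal protein genes, the product side of the same pathway, 0 rose with BPS1 and 1 fell (RPS3, −0.53, limma adjusted p = 0.0217), against 4.29% and 4.32% of all genes. The median was −0.16, with 66 of 78 below 0. With BPS2 0 passed in either direction, against 0.821% higher and 0.386% lower of all genes. At an unadjusted p under 0.05 the counts were also 0, against 6.08% and 5.34%. The median with BPS2 was −0.09, with 70 of 78 genes below 0. Their median deviation was 0.44 in BPS1 replicate 4 and 0.43 in control replicate 1, against −0.23 to 0.08 in the other 10 libraries. Without these 2 libraries 40 of the 78 fell with BPS1, against 7.33% of all genes, with a median of −0.21. With BPS2 1 fell, against 3.76%, with a median of 0.02. In those 10 libraries 48 of 78 were higher with BPS2 than with BPS1, against 10.5% of all genes, with a median of 0.21 and 77 of 78 above 0. The small nucleolar RNA host genes had 1 call upward (EIF4A2, 0.40) and 4 downward (SNHG3, −0.73, GAS5, −0.55, ZFAS1, −0.53, and SNHG14, −0.35) of 25 with BPS1, and 1 upward with BPS2 (EIF4A2, 0.52). Over all genes, 4.29% rose and 4.32% fell with BPS1, and 0.821% and 0.386% with BPS2. Without those 2 libraries, 1 host gene rose and 9 fell with BPS1, against 6.42% and 7.33%. With BPS2, 7 then rose and 0 fell, against 5.78% and 3.76%. For BPS2 against BPS1, 15 were then higher and 0 lower, against 10.5% and 6.88%. Mitochondrially encoded genes, a sign of RNA makeup, had 0 rises and 6 falls of 13 with BPS1 over all 12 libraries, against 4.29% and 4.32% of all genes. They had 2 falls with BPS2, against 0.386%, and their part in the results of the 40 genes was not tested.

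**Figure D5:**
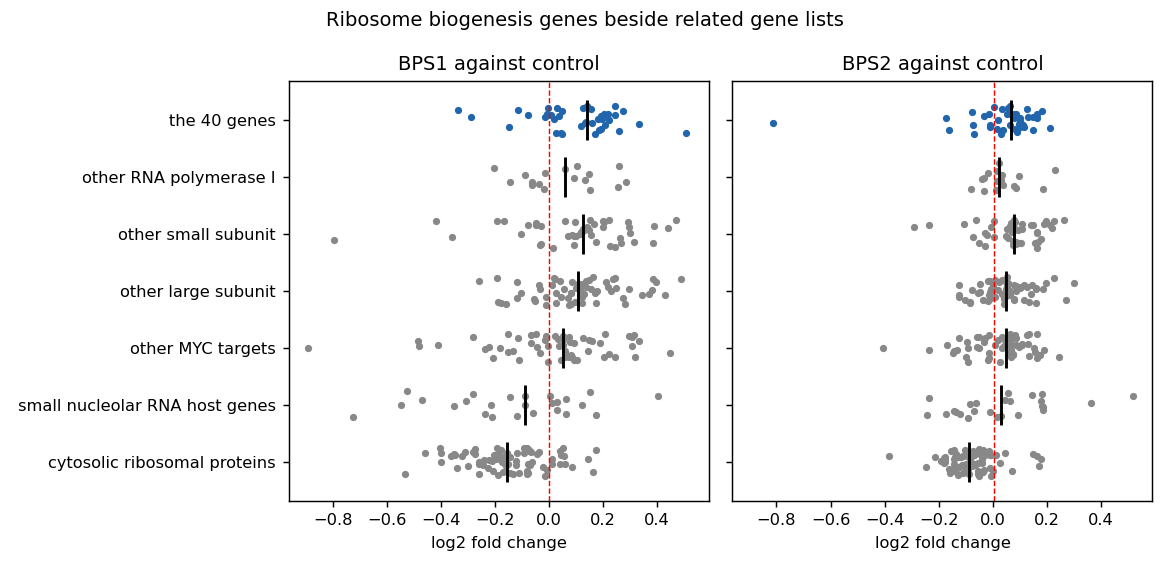
Log2 fold changes of the 40 genes (blue) beside related lists (grey), BPS1 against control on the left and BPS2 against control on the right. Each point is 1 gene, black bars are list medians and the dashed line is the median of all genes tested. With BPS1 the median is 0.14 in the 40 genes and −0.16 in the ribosomal proteins, and the point at −0.81 with BPS2 is UTP20.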

How the data were processed

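RNA-seq values of 12 KELLY libraries, 4 each with BPS1, BPS2 and a control oligonucleotide, were read from the deposited table. Per the submitters' processing notes, the authors used FastQC 0.11.7, Salmon 0.8.2, DESeq2 and GRCh38. The deposited signal is 1 normalized count per gene and library, and its DESeq2 version and annotation were not given in the sources used. None of the 40 rows was in whole reads in all libraries (0 of 40, tolerance 0.001 reads), so no count test was run. Titles were used to match BPS2 columns, because the description of those samples reads KPAS; 1 BPS1 column (replicate 3) has the spelling BSP1.

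Values were taken as log2(value + 1), a scale on which fold changes of low genes are understated. A single model in limma 3.58.1 (R 4.3.3, eBayes with trend) covered all 12 libraries with group as its only term, and p-values were Benjamini-Hochberg adjusted over 20454 genes. Exact permutation tests of single genes were two-sided, with 70 arrangements. Transcript lengths, GC content and positions are from GENCODE release 29 (53405 identifiers matched by ID). The identifier of UTP4 in the table, ENSG00000262788, was not among them, and the release's gene of that symbol was used. Depth is an estimate from the smallest steps of the values, and no counting interval is given. Between replicates of a group, chi-square per gene was 1.60 to 6.39, above sampling noise in every pair, and all 12 libraries were kept. The genes, their roles and the other lists were chosen with earlier results of these data known. Named were the genes that passed, the 6 with the smallest p per comparison, the most abundant gene of each role, MYCN and MYC, and up to 4 passing genes per other list; genes named beyond that were picked after their values were seen. The fit was also run on simulated data with independent noise in each gene and library. Those data held no GC trend and no library that stands apart, so that run does not cover such libraries. Alternatives are in the closing section.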

Additional observations from a re-analysis of the deposited data

Results flagged for a closer look

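For the named genes, the median deviation of the 40 genes and their share of a library, 60 groups of 4 values were searched for 1 library far from the other 3, by Dixon's 95% limit on the gap over the range. Chance marks about 1 in 20 such groups when they are independent, but these genes share the same 12 libraries. The count is therefore not read as an excess over that rate. Of the 60, 10 were marked, 7 of them in BPS1 replicate 4. In that library NPM1 (68139), GNL3 (11216), NOP56 (19687) and UBTF (10476) were far above the other BPS1 libraries, and WDR3 (6421) and UTP20 (3949) far below them. The median log2 deviation of the 40 genes was 0.33 there. In control replicate 1, WDR43 (4880), WDR3 (5973) and UTP15 (1305) were far below the other controls. No BPS2 library was marked.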

How the results depend on the processing

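Both BPS2 calls of UTP20 held under all alternatives, at −0.89 to −0.78 against control when single libraries were left out. The medians of the 40 genes ran from 0.05 to 0.18 with BPS1, 0.03 to 0.11 with BPS2 and −0.12 to 0.01 for BPS2 against BPS1 as single libraries were left out, with the lowest BPS1 value and the change of sign without BPS1 replicate 4 and the lowest BPS2 value without control replicate 4. Counts of calls among the 40 genes did move, and the cause was not tested. With BPS1 the 1 higher gene became 0 without the filter, 0 with only the 2 groups compared, 2 with quantile scaling, 3 with the GC correction, 4 with library weights and 6 without control replicate 1 and BPS1 replicate 4, and the 0 lower genes became 1 with the GC correction, 2 with library weights and 2 without those libraries. With BPS2 the 0 higher genes became 1 with library weights and 6 without those libraries, and the 1 lower gene became 2 without them. For BPS2 against BPS1 the 0 higher genes became 2 with library weights and 5 without those libraries, and the 1 lower gene became 2 with the GC correction, 5 with library weights and 5 without them. Leaving out single libraries gave 0 to 3 higher and 0 to 1 lower with BPS1, 0 higher and 1 lower with BPS2, and 0 to 1 higher and 1 to 2 lower for BPS2 against BPS1, and the highest counts came without BPS1 replicate 4. For no filter, quantile scaling, the GC correction and single libraries left out, calls over all genes are not given here. Counts among the 40 genes under those settings are therefore not read as a result about them. MYCN with BPS2, at −0.02, changed sign to 0.079 with quantile scaling and 0.012 without control replicate 1, alone or with BPS1 replicate 4, and ran from −0.053 to 0.012 as single libraries were left out. Over all genes, calls with BPS1 were 877 higher and 883 lower, 1599 and 1783 with library weights, and 459 and 468 with only the 2 groups. With BPS2 they were 168 and 79, 788 and 508 with library weights, and 1165 and 758 without the 2 libraries. For BPS2 against BPS1 they were 470 and 333, 2133 and 1493 with library weights, and 2110 and 1388 without the 2 libraries.

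The replicate numbers did not pair the libraries: of 12 same-numbered pairs the correlation of deviations was −0.27 to 0.10, 1 was over 0.1, and in 1 of 12 the same number gave the best correlation. With the replicate number as a block, the calls among the 40 genes were 1 higher and 0 lower with BPS1, 0 and 1 with BPS2, and 0 and 1 for BPS2 against BPS1, while calls over all genes were 524 and 543, 81 and 37, and 273 and 174 in that order. The number of libraries limits what can be seen: with 4 a group, the median half-width of an interval was 0.24 on the log2 scale.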
